A study of Mus musculus with 10 samples.

Results

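The Myc and Max network was followed through the reprogramming of mouse embryonic fibroblasts as 10 genes out of the 45706 genes in the deposited tables: Myc, Mycn, Mycl, Max, Mnt, Mxd1, Mxd3, Mxd4, Mxi1 and Mlx. The genes are named as members of the network, and the reads and TPM of each gene's transcripts were added up by gene ID. Each of the 10 symbols had 1 gene ID. Poly(A) RNA was measured in 5 groups of 2 libraries, all on a C57BL/6 x 129 background and under a single batch label. The MEF group was uninduced fibroblasts of genotype OKSM Col1a1/M2rtTA ROSA26, unsorted and kept in MEF medium without doxycycline. The day 3, day 6 and day 9 groups were fibroblasts of the same genotype in ESC medium with doxycycline at 1 µg/ml and ascorbic acid at 50 µg/ml. No sorting was applied at day 3, and cells positive for the surface epitope SSEA1 were sorted at day 6 and day 9. The ESC group was the V6.5 embryonic stem cell line, unsorted, on irradiated feeder cells in ESC medium with LIF. The labels give no age, sex or number of embryos. The cassette in the Col1a1 locus encodes Oct4, Klf4, Sox2 and Myc, so Myc was both a member of the network and an agent of the treatment. Doxycycline, the cassette factors, ascorbic acid and the change of medium came together between MEF and day 3, and their effects cannot be told apart. MEF and the induced groups also differed in sex-linked transcripts, and this difference cannot be told apart from the treatment. ESC and the induced groups differed in these transcripts as well, which cannot be told apart from the other differences between them. Sorting began between day 3 and day 6.

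Myc proteins are basic helix-loop-helix leucine zipper transcription factors that bind DNA as dimers with Max, most tightly at the E-box CACGTG, and raise genes of ribosome making, metabolism and growth. Max also pairs with Mnt, Mxd1, Mxd3, Mxd4 and Mxi1, which occupy the same sites and recruit Sin3 and histone deacetylases, so that the balance of partners sets the output of a shared Max pool. Mlx is the Max-like partner of the glucose-sensing factors Mlxip and Mlxipl and can also dimerize with some Mxd proteins. In pluripotent cells Myc and Mycn are known to overlap in function, and loss of both slows growth and protein synthesis.

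The E-box was searched as CACGTG, which reads the same on both strands, in promoter windows of 250 bases before to 50 bases after each RefSeq gene start (GRCm38.p6). Of the 10 genes, 9 had a promoter in the table used, and 4 of these held the motif: Max, Mlx, Mnt and Mxd4. It was present in 4 of the 11 windows of the network genes (36.4%) and in 2349 of all 32851 windows (7.15%). Myc had no entry in the table. The 60 bases around each of the 4 E-boxes are shown, in the direction of transcription, because they mark which genes of the network carry the network's own recognition sequence beside their start. Capitals mark the E-box.
Mxd4, chr5:34187897-34187956, minus strand: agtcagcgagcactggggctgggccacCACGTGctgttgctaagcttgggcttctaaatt
Max, chr12:76962219-76962278, minus strand: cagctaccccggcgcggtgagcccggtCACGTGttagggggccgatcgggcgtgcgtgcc
Mnt, chr11:74830774-74830833, plus strand: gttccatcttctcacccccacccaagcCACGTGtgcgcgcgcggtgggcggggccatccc
Mlx, chr11:101087223-101087282, plus strand: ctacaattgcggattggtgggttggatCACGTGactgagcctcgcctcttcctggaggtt
The motif began 219 bases before the start in Mxd4, 123 in Mnt, 40 in Mlx and 3 in Max. A match is a description of the letters, and binding was not measured in these libraries.

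Libraries held 29585876 to 38275024 estimated reads, and all 10 network genes passed the filter on low counts. Levels are given as CPM (estimated reads relative to the TMM-scaled library total) within a gene and as TPM (scaled by transcript length) between genes. A gene was called when its edgeR adjusted p lay under 0.05 and its log2 difference reached 1 in either direction, the fold minimum. Summed CPM of 10 fibroblast markers was 33507 to 33767 in MEF, 3261 to 3272 on day 3, 146.2 to 151.1 on day 6, 62.46 to 67.89 on day 9 and 2854 to 3026 in ESC. In ESC, which grew on feeders, each of these markers stood at 2.87% to 14% of its MEF level. The 8 pluripotency markers summed to 3889 to 3974 CPM in ESC and to 1.995 to 2.408 in MEF, where 7 of the 8 were under 1 CPM. The MEF and induced libraries also differed in sex-linked transcripts: Xist was at 0.742 to 0.793 CPM in MEF and 930 to 1090 at day 3, and Ddx3y at 86.4 to 90.6 and 0.0538 to 0.0887. At day 6 and day 9 Xist was at 1291 to 1317 and 1047 to 1103 CPM, and Ddx3y at 0.151 to 0.176 and 0.0964 to 0.101. This is a male pattern in MEF and a female one in the induced libraries, so MEF cannot be taken as the starting cells of the induced groups. In ESC Xist was at 9.01 to 11.3 CPM and Ddx3y at 26.1 to 26.8, so ESC also differed from the induced libraries. All 10 network genes are autosomal, and the part of these differences in the results was not tested.

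The Myc paralogs followed separate courses. Myc was highest in the induced cells and lowest in ESC. Mycn rose from near the bottom of the measurable range in MEF to its highest level in ESC, and Mycl was highest at day 9 and fell again in ESC.

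Myc, the family's growth-promoting founder (chr15:61985391-61990374), was at 118.2 and 116.9 CPM in the MEF libraries, 275.9 and 275.1 at day 3, 333.9 and 325.2 at day 6, 277.7 and 294.3 at day 9, and 18.97 and 18.43 in ESC. The 6 induced libraries lay above both MEF libraries, and both ESC libraries lay far below all others. Day 3 and day 9 were the closest neighbours: their ranges did not overlap, but their means differed by 10.5 CPM against a larger SD of 11.8. The rise from MEF to day 3 was 1.23 on the log2 scale (SE 0.036, edgeR adjusted p 6.3e-13). ESC stood at -3.94 on the log2 scale relative to day 9 (SE 0.043, edgeR adjusted p 3.9e-17), a 15.3-fold lower level, and at -2.65 relative to MEF (SE 0.045).

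The Myc total joined transcripts with opposite courses. Transcript Myc-202 is 1362 bases long and, in the annotation (GENCODE M21, GRCm38, chr15:61985922-61989908), holds the coding sequence alone and ends at the stop codon. Its last 30 bases are shown because most other Myc transcripts continue beyond this stop codon. Capitals mark the stop codon.
Myc-202 end, chr15:61989879-61989908, plus strand: ctcgaacagcttcgaaactctggtgcaTAA
Myc-202 was at 2.08 and 1.98 TPM in MEF, 93 and 100 at day 3, 126 and 122 at day 6, 98.2 and 104 at day 9, and 0.413 and 0.335 in ESC. All other Myc transcripts together were at 35.8 and 34.6 TPM in MEF, 14.6 and 12.8 at day 3, 9.33 and 9.15 at day 6, 7.95 and 7.71 at day 9, and 5.88 and 5.7 in ESC. Myc-202 was high in the 6 induced libraries and low in the other 4, while the remaining transcripts were lower in each later group with no overlap. Counted on the transcripts other than Myc-202, the log2 fold change of Myc against MEF was -1.31 at day 3 and -2.03 at day 9 (edgeR adjusted p 2e-10 and 1.3e-12), against 1.23 and 1.28 for all transcripts. The difference between ESC and day 9 was then -0.63 in place of -3.94 and under the fold minimum. Short reads are divided among overlapping transcripts by estimation, and how many of them came from the cassette or from the Myc locus was not tested.

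**Figure D1:**
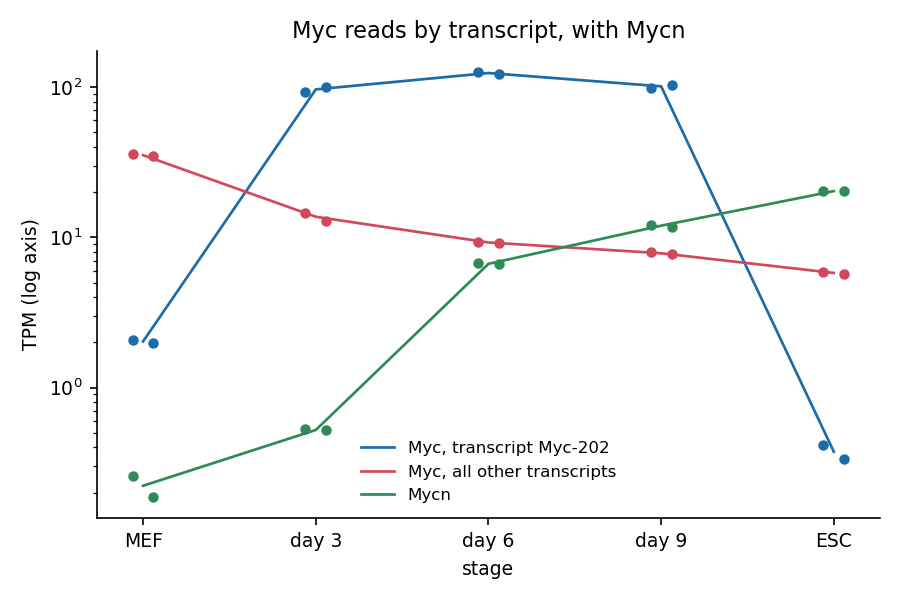
Level of the transcript Myc-202, of all other Myc transcripts together, and of Mycn, in TPM on a log axis, by stage; points are the 2 libraries of each group and lines join group means. Myc-202 stands at 93 to 126 TPM in the induced libraries, while the other Myc transcripts fall from 35.8 to 5.7 TPM and Mycn climbs from 0.188 to 20.4 TPM.

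Mycn (chr12:12936093-12941914), the paralog known from neural progenitors and pluripotent cells, was at 1.33 and 1.006 CPM in MEF, 2.45 and 2.572 at day 3, 30.99 and 30.37 at day 6, 59.44 and 59.23 at day 9, and 95.25 and 98.35 in ESC. No 2 groups overlapped, and the order MEF, day 3, day 6, day 9, ESC held in all libraries. The step from day 3 to day 6 was the largest between neighbouring stages, at 3.61 on the log2 scale or 12.2-fold (SE 0.078, edgeR adjusted p 6.5e-14). ESC stood above MEF by 6.39 (SE 0.083, edgeR adjusted p 1.1e-16), and 36 and 33 reads in the MEF libraries limit that ratio.

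The rise of Mycn from MEF to day 3 was near the fold minimum, at 1.12 (SE 0.16, edgeR adjusted p 1.9e-05) on 91 and 87 reads at day 3. It was no longer called by DESeq2 (1.00), by limma on log2(TPM + 1) (0.32) or log2(TPM + 0.1) (0.96), or without MEF replicate 2 (0.92). Differences of 0.95 between day 6 and day 9, and of 0.71 between day 9 and ESC, had edgeR adjusted p-values of 2.9e-09 and 3.8e-09 but stayed under the fold minimum. The day 6 step coincided with the start of SSEA1 sorting. In these bulk libraries more cells with Mycn and more Mycn RNA per cell cannot be told apart.

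Mycl (chr4:122995652-123002485), the third paralog, was at 9.752 and 11.65 CPM in MEF, 15.61 and 14.28 at day 3, 29.66 and 28.4 at day 6, 49.79 and 48.62 at day 9, and 14.73 and 16.72 in ESC. Day 9 was highest and day 3 overlapped ESC. Day 9 stood above MEF by 2.19 on the log2 scale (SE 0.081, edgeR adjusted p 4.6e-12), and ESC lay below day 9 by -1.64 (SE 0.075, edgeR adjusted p 9.5e-11). The difference from day 3 to day 6 was 0.96, under the fold minimum, and reached 1.02 with library-size scaling and without day 3 replicate 1. Summed CPM of 7 epithelial markers was also highest at day 9, at 1387 to 1439 against 604.9 to 607.1 in ESC, and its part in the Mycl result was not tested.

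**Figure D2:**
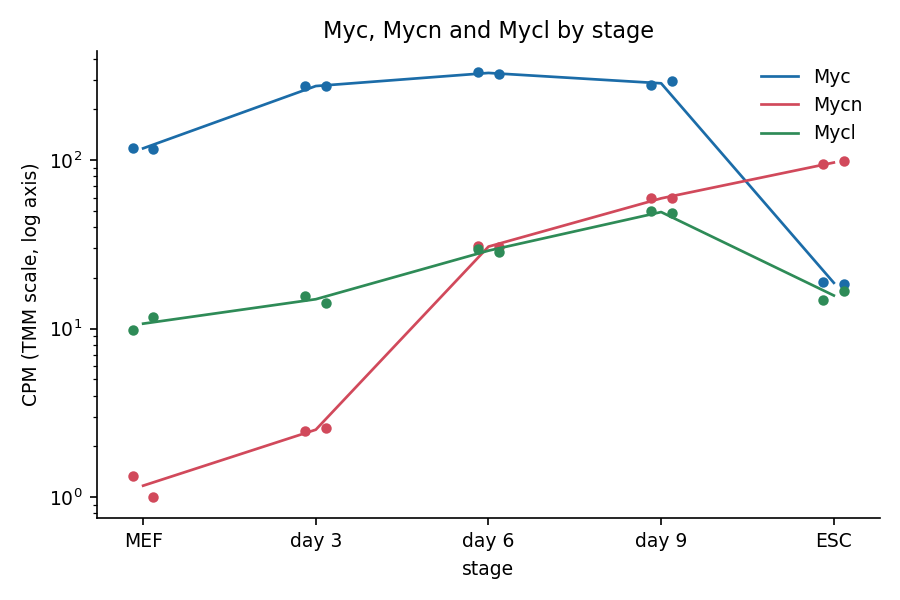
Levels of Myc, Mycn and Mycl in CPM on a log axis, by stage; points are the 2 libraries of each group and lines join group means. Mycn increases through all 5 groups to 98.35 CPM, Mycl is highest at day 9, and Myc drops to 18.43 to 18.97 CPM in ESC.

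Per length, the 3 paralogs together were at 39.4 ± 0.861 TPM in MEF, 114 ± 4.02 on day 3, 145 ± 3.6 on day 6, 129 ± 3.02 on day 9 and 29.4 ± 0.139 for ESC (SD, n = 2). Mycn made up 0.563% ± 0.109 of this sum in MEF, 4.58% ± 0.0524 at day 6, 9.28% ± 0.36 at day 9 and 69.2% ± 0.326 in ESC (SD, n = 2). ESC was thus the group in which Mycn TPM exceeded that of all Myc transcripts, 20.2 and 20.4 against 6.29 and 6.04. Against the Myc transcripts other than Myc-202, Mycn TPM was already higher at day 9, at 12.1 and 11.8 against 7.95 and 7.71, and lower at day 6, at 6.72 and 6.6 against 9.33 and 9.15.

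Max, the shared dimer partner (chr12:76937269-76962201), varied least of the 10 genes over the 6 comparisons. It was at 65.83 and 63.2 CPM in MEF, 82.67 and 81.47 at day 3, 70.73 and 73.53 at day 6, 69.08 and 68.72 at day 9, and 66.58 and 68.79 in ESC. Day 3 was highest, and ESC and day 9 overlapped. The log2 fold change from MEF to day 3 was 0.35 (SE 0.04, edgeR adjusted p 2.8e-06) and no comparison of Max passed the fold minimum. On the per-length scale Max stood at 16.5 to 22.4 TPM over the 10 libraries.

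Mlx (chr11:101087277-101092207) was at 25.41 and 26.83 CPM in MEF, 21.43 and 21.4 at day 3, 28.9 and 27.31 at day 6, 30.25 and 31.04 at day 9, and 34.7 and 35.12 in ESC. Day 3 was lowest and ESC highest, with no overlap between groups. Its largest log2 fold change was 0.42, ESC against MEF (SE 0.053, edgeR adjusted p 5.4e-06), so it was called nowhere.

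Among the repressor partners of Max, Mxd4 was the one that was called, and it fell. The gene (chr5:34173883-34187720), whose protein is linked to leaving the cell cycle, was at 134.6 and 134.4 CPM in MEF, 202.4 and 206.1 at day 3, 84.4 and 84.02 at day 6, 48.54 and 51.9 at day 9, and 21.36 and 24.73 in ESC. Day 3 was highest, and from there each later group lay below the one before with no overlap. The difference from MEF to day 3 was 0.60 (SE 0.046, edgeR adjusted p 2.9e-08), under the fold minimum. Mxd4 fell by 1.28 from day 3 to day 6 (SE 0.047, edgeR adjusted p 1.7e-11), and ESC stood at -2.54 relative to MEF (SE 0.055, edgeR adjusted p 1.5e-14).

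The lower level of Mxd4 in ESC than at day 9, -1.12 on the log2 scale (SE 0.059, edgeR adjusted p 4.6e-10), was not called by limma on TPM (-0.80 and -0.91). The fibroblast marker sum was lower at day 9 than at day 3, like Mxd4, but higher in ESC than at day 9. The ESC level of Mxd4 was 17.1% of its MEF level and that of Myc 15.9%, against a median of 8.62% for the 10 fibroblast markers. What part of the ESC reads of these 2 genes came from feeder cells was not tested.

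Mxd3, expressed in dividing cells around S phase, was at 14.48 and 17.01 CPM in MEF, 28.78 and 25.07 at day 3, 16.23 and 14.19 at day 6, 10.93 and 10.76 at day 9, and 14.14 and 13.89 in ESC. Mxd1, the founding Mad gene of differentiating cells, was at 8.238 and 8.536 CPM in MEF, 12.19 and 12.33 at day 3, 9.407 and 7.259 at day 6, 6.043 and 6.592 at day 9, and 5.421 and 5.02 in ESC. Both were highest at day 3, and in both the day 6 libraries overlapped MEF. From MEF to day 3 the log2 fold change was 0.77 for Mxd3 (SE 0.091, edgeR adjusted p 3.5e-06) and 0.55 for Mxd1 (SE 0.12, edgeR adjusted p 0.00096), both under the fold minimum.

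Mnt, the broadly expressed Myc antagonist, was at 51.9 and 48.99 CPM in MEF, 43.29 and 44.87 at day 3, 34.25 and 38.65 at day 6, 30.7 and 33.67 at day 9, and 41.22 and 41.74 in ESC. It was lowest at day 9 and highest in MEF, except that with library-size scaling day 3 and ESC lay 0.01 and 0.06 above MEF on the log2 scale. Day 9 differed from MEF by -0.64 (SE 0.063, edgeR adjusted p 3.5e-07), the largest difference of Mnt and under the fold minimum. No comparison of Mnt, Mxd1, Mxd3 or Mxi1 was called.

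**Figure D3:**
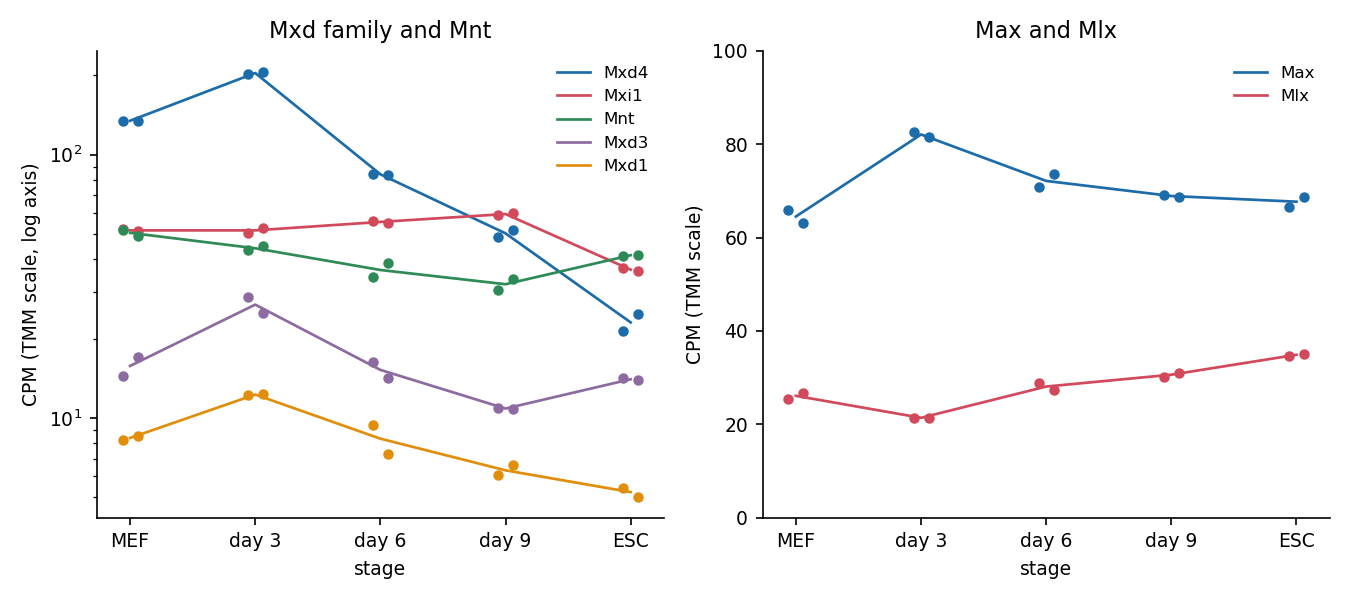
Left, levels of Mxd4, Mxi1, Mnt, Mxd3 and Mxd1 in CPM on a log axis; right, Max and Mlx in CPM on a linear axis; by stage, with the 2 libraries of each group as points and lines through group means. Mxd4 drops from 202.4 to 206.1 CPM at day 3 to 21.36 to 24.73 in ESC, while Max stays between 63.2 and 82.67 CPM.

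Added per length, the 5 repressor partners were at 49.2 ± 1.13 TPM in MEF, 66.8 ± 1.47 on day 3, 35.4 ± 0.475 on day 6, 25.8 ± 0.694 on day 9 and 23.3 ± 0.48 for ESC (SD, n = 2). Mxd4 made up 56.9% ± 0.706 of that sum in MEF and 20.5% ± 4.35 in ESC (SD, n = 2). The summed repressor TPM exceeded the summed TPM of the 3 Myc paralogs in MEF, 48.4 and 50 against 40 and 38.8, and lay below it in the other 8 libraries. Both sums count all transcripts, also those annotated without coding sequence. In MEF such transcripts included Mxd4-004 at 8.13 and 9.44 TPM and Mxd3-003 at 2.48 and 2.52. On coding transcripts alone the repressors would lie below the paralogs in MEF too. Without Myc-202 the paralogs summed to 17.9 and 16.4 TPM at day 3 and 21.6 and 21 at day 6, below the repressors, and to 28.6 and 27 at day 9, above them. In ESC the sums of all transcripts were 23.7 and 23 for the repressors against 29.3 and 29.5. These are RNA levels, and protein was not measured.

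Mxi1, a member of the Mxd family, was at 52.05 and 51.06 CPM in MEF, 50.58 and 52.53 at day 3, 55.97 and 55.05 at day 6, 59.02 and 59.93 at day 9, and 36.97 and 36.13 in ESC. ESC lay below all other libraries, and MEF and day 3 overlapped. ESC differed from day 9 by -0.70 (SE 0.043, edgeR adjusted p 2.7e-09), under the fold minimum. The gene is known to give a strong repressor with an N-terminal region that binds Sin3 and a weak form without it.

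Reads of Mxi1 were divided among 3 transcripts, here called upstream, middle and short. The last is named for its coding sequence, 576 bases against 885 and 684 in GENCODE M21. By whole length there it is the longest, at 5036 bases against 2627 and 2340. In GENCODE M21 the upstream transcript has 103 codons, and the middle one 36 codons, ahead of the first codon of the short one. The lengths of these transcripts in M21 differ from the deposited ones, so exon structures are those of the annotation and not necessarily of the authors' index. The 250 bases before 2 of the 3 RefSeq starts are shown because they are the separate genomic origins of transcripts with different first exons. Neither holds CACGTG, so no letter is in capitals.
Mxi1 upstream start, chr19:53310256-53310505, plus strand: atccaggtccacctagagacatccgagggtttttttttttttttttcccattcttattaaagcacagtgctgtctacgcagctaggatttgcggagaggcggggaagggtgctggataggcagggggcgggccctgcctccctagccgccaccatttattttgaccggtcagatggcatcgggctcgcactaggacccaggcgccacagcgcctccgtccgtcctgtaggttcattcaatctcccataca
Mxi1 downstream start, chr19:53329163-53329412, plus strand: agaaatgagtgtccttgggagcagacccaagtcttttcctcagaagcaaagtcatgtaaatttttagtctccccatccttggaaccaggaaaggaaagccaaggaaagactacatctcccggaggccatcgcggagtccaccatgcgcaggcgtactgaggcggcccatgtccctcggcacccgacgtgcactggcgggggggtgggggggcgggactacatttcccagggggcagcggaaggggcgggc
The upstream transcript begins at 53310518, the middle one at 53329413, directly after the downstream window, and the short one at 53329458. These windows therefore do not separate the middle transcript from the short one.

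The share of Mxi1 reads on the upstream transcript was 56.7% and 47.7% in MEF, 42.8% and 24.5% at day 3, 25.8% and 26.5% at day 6, 22% and 28.2% at day 9, and 24.2% and 22.3% in ESC. The short transcript held 4.4% and 0% in MEF, 33% and 15.7% at day 3, 13% and 12.6% at day 6, 18.6% and 17% at day 9, and 54.4% and 49% in ESC. The middle transcript held 38.9% and 52.3% in MEF, 24.2% and 59.8% at day 3, 61.2% and 60.9% at day 6, 59.4% and 54.8% at day 9, and 21.4% and 28.7% in ESC. Both MEF libraries were above all day 6, day 9 and ESC libraries in the share of the upstream transcript, and both ESC libraries were above all others in that of the short one. The 2 day 3 libraries were far apart in all 3 transcripts. Over all genes, too, this pair had the largest chi-square per degree of freedom between replicates, 5.42 against 2.91 to 3.49 in the other groups. No test was made, since the tables carry no uncertainty for that division.

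**Figure D4:**
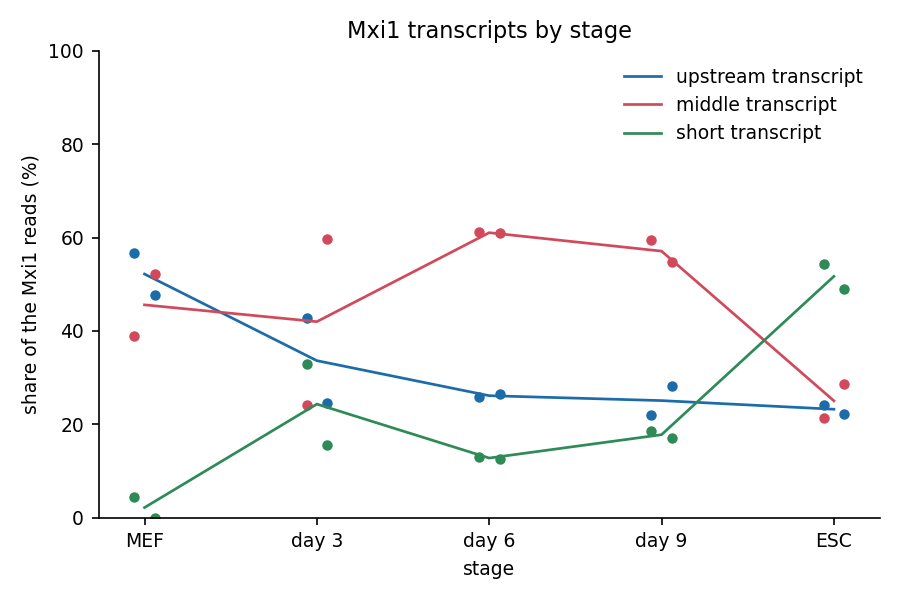
Share of the Mxi1 reads on each of its 3 transcripts, in percent, by stage; points are the 2 libraries of each group and lines join group means. The short transcript, so named for its coding sequence, reaches 49% to 54.4% in ESC, and the day 3 libraries lie apart, at 24.2% and 59.8% for the middle one.

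Max reads were divided between 2 transcripts. Max-202 differs from Max-201 in the annotation by an added exon of 27 bases (chr12:76961263-76961289). It held 30.7% and 10.1% of the Max reads in MEF, 27.4% and 17.5% at day 3, 24.9% and 27.9% at day 6, 19.7% and 21.5% at day 9, and 15.3% and 16.4% in ESC. The MEF libraries spanned the values of all other groups, while day 6, day 9 and ESC lay in descending order with no overlap. No test was made.

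In none of the 6 comparisons did the share of the 10 genes that was called stand far above the share of all tested genes. From MEF to day 3, 2 of the 10 genes rose (Myc and Mycn) and 0 fell, where 29.1% of all 20165 tested genes were called. From day 3 to day 6, Mycn rose and Mxd4 fell, 2 of 10 against 19.5%. Between ESC and day 9, 3 of 10 were lower in ESC (Myc, Mycl and Mxd4) against 32.9% called. ESC against MEF gave 3 of 10, with Mycn higher and Myc and Mxd4 lower, against 46.1%, and day 9 against MEF gave 4 of 10, with Myc, Mycn and Mycl higher and Mxd4 lower, against 43.9%. Each group enters more than one comparison, so the comparisons are not independent of each other.

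Between day 6 and day 9, edgeR called 0 of the 10 genes at both thresholds, against 7.87% of all genes, and DESeq2 and limma also called 0. At an unadjusted edgeR p under 0.05, 4 were higher and 5 lower, and the share of all genes at that p was not counted. By edgeR adjusted p alone, without a fold minimum, 7 of the 10 genes passed, 2 higher at day 9 (Mycn and Mycl) and 5 lower (Myc, Mnt, Mxd1, Mxd3 and Mxd4), where 34.6% of all genes passed. All 7 differences were under the fold minimum. For Mnt and Mxd1 the difference of means, 4.27 and 2.02 CPM, was smaller than the gap between the 2 day 6 libraries, and Mnt was at 0.01 with the length offset. The same rule passed 9 genes at day 3 against MEF (64.9% of all genes), 10 at day 6 against day 3 (56.5%), 8 for ESC against day 9 (69.6%), 8 for ESC against MEF (76.6%) and 10 at day 9 against MEF (74.9%). The libraries are labelled as replicates without saying that they came from separate embryos. The p-values set group differences against the spread within groups of these libraries, estimated over all of them together. Whether that spread includes differences between embryos is not known.

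Genes commonly given as raised by Myc were counted as a list of 46, covering ribosome making, nucleotide and amino acid metabolism and the cell cycle. At day 3 against MEF, 4 were called higher and 4 lower (14.6% and 14.5% of all genes), with a median log2 fold change of 0.13 against 0.08 over all genes. Those with the largest rises were Ppat, the entry enzyme of purine synthesis, at 1.79 and Ccnd2, a D-type cyclin, at 1.72. The largest falls were those of Mthfd2, a mitochondrial folate enzyme, at -3.77 and Slc7a5, a subunit of a leucine transporter, at -2.44. Myc itself had risen 2.34-fold at this stage.

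From day 3 to day 6, 7 of the 46 were called higher and 0 lower, where 9.26% of all genes were called higher. The median was 0.65 against 0.03, and by adjusted p alone 45 were higher and 1 lower, against 29.2% and 27.3% of all genes. Tfrc, the transferrin receptor, led with 1.53, followed by Hk2, a hexokinase, with 1.29. The count called higher was 3 by limma on log2(TPM + 1) and 10 with library-size scaling. Between day 6 and day 9 edgeR and DESeq2 called 0 of 46 and limma 1, lower, where edgeR called 7.87% of all genes. By edgeR adjusted p alone 19 were higher and 2 lower, against 15.7% and 18.9% of all genes, and at an unadjusted p under 0.05, 26 and 2. The share of all genes at that unadjusted p was not counted.

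Day 9 against MEF gave 21 of the 46 higher and 4 lower, with a median of 0.92 against 0.19 and a background of 24.1% called higher and 19.8% lower. Ppat was at 2.70 and Dctpp1, a nucleotide pyrophosphatase, at 2.41, while Mthfd2 was at -2.45 and Ldha, lactate dehydrogenase A, at -2.11. Among the genes of ribosome making, Polr1b, a subunit of RNA polymerase I, was 2.09 higher and the nucleolar proteins Nop56 and Nolc1 were 1.79 and 1.76 higher. ESC against MEF gave 29 higher and 2 lower, with a median of 1.16 against 0.10, with 25.5% of all genes called higher and 20.6% lower. In ESC the summed Myc paralog TPM was lower than in MEF, 29.4 against 39.4, and more of these genes were called higher than lower. Any relation between that sum and the list was not tested.

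**Figure D5:**
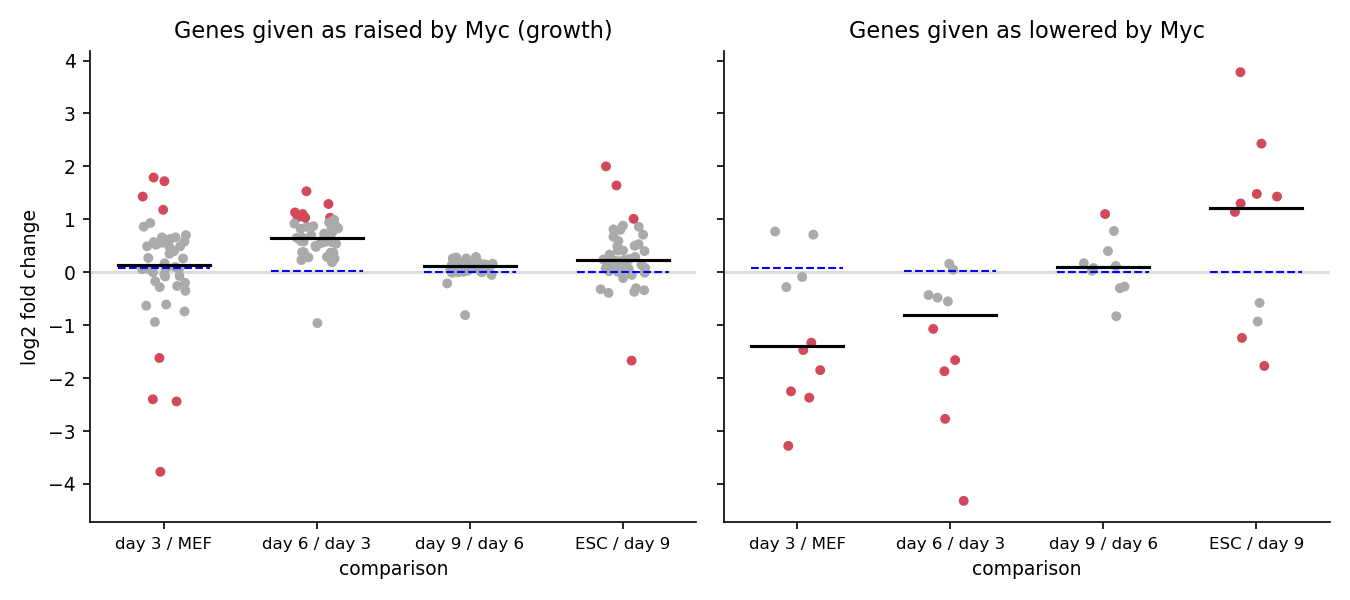
Log2 fold change of each gene in 2 lists, genes given as raised by Myc (left) and as lowered by Myc (right), for the 4 steps between neighbouring stages; red points are called genes, black bars the list's median and dashed blue bars the median of all tested genes. The left list's median is highest, at 0.65, from day 3 to day 6, and the right list's is -1.40 from MEF to day 3 and 1.22 for ESC against day 9.

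Promoters of 38 of the 46 genes were in the table, and 14 of these genes held CACGTG. Examples are shown for a gene that was higher and one that was lower at day 9 than in MEF, chosen after their values were seen, to set beside the E-boxes of the network's own genes. Capitals mark the E-box.
Nop2, chr6:125131796-125131855, plus strand: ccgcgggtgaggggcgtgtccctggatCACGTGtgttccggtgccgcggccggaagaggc
Ldha, chr7:46845729-46845788, plus strand: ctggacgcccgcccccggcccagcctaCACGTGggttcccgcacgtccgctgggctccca
The nucleolar methyltransferase gene Nop2, whose E-box lies 60 bases before the start, was 1.01 higher on the log2 scale (SE 0.043, edgeR adjusted p 2.3e-11), and Ldha, with 48 bases, was at -2.11 (SE 0.031, edgeR adjusted p 1.8e-16). Of the 14 genes with the motif, 3 were called higher and 1 lower at day 9 against MEF, with a median of 0.64. Of the 24 without it, 16 were called higher and 2 lower, with a median of 1.18. Over all tested genes 24.1% were called higher and 19.8% lower, with a median of 0.19. The difference between these 2 sets was not tested.

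Genes commonly given as lowered by Myc formed a list of 10 that holds cell cycle inhibitors, Gadd45 and Ndrg stress genes and Thbs1. From MEF to day 3, 0 were called higher and 6 lower, with a median of -1.40 against 0.08 and 14.5% of all genes called lower. Ndrg2 was at -3.28 and Cdkn2b, an inhibitor of Cdk4 and Cdk6, at -2.37. From day 3 to day 6, 0 of the list were called higher and 5 lower, against 10.2% of all genes, led by Thbs1, a matrix glycoprotein, at -4.32 and Cdkn1c, a further Cdk inhibitor, at -2.77. Between day 6 and day 9, 1 was called higher and 0 lower, where 7.87% of all genes were called. ESC against day 9 gave 6 higher and 2 lower, against 18.6% and 14.3% of all genes, with Thbs1 at 3.78 and Ndrg2 at 2.43 against Gadd45g at -1.77 and Gadd45b at -1.24. Against MEF, 0 were higher and 7 lower both at day 9 (median -2.11 against 0.19) and in ESC (median -1.49 against 0.10). Of all genes, 19.8% and 20.6% were called lower in these 2 comparisons. With library-size scaling 5 were lower in each. The fibroblast marker sum was lower at day 3 and day 6 and higher in ESC than at day 9, in the same direction as Thbs1, and its part in these counts was not tested.

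Partners and cofactors of the network formed a list of 21. From MEF to day 3, edgeR and DESeq2 called 0 of 21, limma 1 and edgeR with library-size scaling 4, all higher. In the main edgeR fit 29.1% of all genes were called there. By edgeR adjusted p alone, and at an unadjusted p under 0.05, 16 were higher and 3 lower, against 35.4% and 29.5% of all genes by adjusted p. At day 9 against MEF, 8 were higher and 0 lower, against 24.1% of all genes called higher, and the median was 0.68 against 0.19. Mlxipl, a glucose-sensing partner of Mlx, was 2.57 higher but at 1.71 CPM against 0.288, and Wdr5, a chromatin adaptor that binds Myc, was 2.34 higher at 258 against 51 CPM. ESC against MEF gave 9 higher and 0 lower, against 25.5% and 20.6% of all genes, with Mlxipl at 3.77 and L3mbtl2 at 3.09. L3mbtl2 and Pcgf6, which was 2.48 higher, belong to a Polycomb complex that holds Max together with Mga and E2f6. Mga was 1.38 higher, while E2f6 was at -0.41 (SE 0.059, edgeR adjusted p 2.1e-05), under the fold minimum.

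Over the 10 libraries, the genes with courses most like those of the paralogs were sought by Pearson correlation of log2 CPM among 11186 protein-coding genes at a mean of at least 5 CPM. They are given as a description, since the libraries of a stage move together and no p applies. Tmem55a (0.9989), Id2 (0.9982) and Gpm6b (0.998) were nearest to Myc. The course used for Myc was that of all its transcripts, with 83.5% to 90.6% of reads on Myc-202 in the induced groups (group means). Nhp2 (0.9984), Clcn3 (0.9983) and Wasf3 (0.9974) were nearest to Mycn. Ly6g6c (0.9937), F11r (0.9884) and Tfap2a (0.9846) were nearest to Mycl, whose nearest courses were less close than those of its paralogs.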

How the data were processed

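RNA-seq of 10 libraries in 5 groups was analysed. The authors deposited estimated counts and TPM values per transcript, made with Salmon 0.8.2 on mm10 per the submitters' processing notes; the annotation release is not given in the sources used here. Libraries were made with a stranded kit, per the labels. For 109617 transcripts, both deposited units were summed by gene ID, and estimated counts were rounded.

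Counts were filtered with filterByExpr (minimum count 10, minimum total 15), which left 20165 genes, scaled with TMM and tested with edgeR 4.0.16 in R 4.3.3 (glmQLFit and glmQLFTest) on all libraries with a mean per group. Adjusted p-values are Benjamini-Hochberg values over all tested genes. Each of 6 comparisons sets 2 libraries against 2, for which an exact permutation test cannot give a two-sided p below 0.333. The common biological coefficient of variation was 3.75%. Fits were tested on simulated data.

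The 10 members and the gene lists were chosen with earlier results of these data known, so no list is independent evidence. Named were all members, the 3 nearest courses of each paralog, and the 2 largest called rises and falls of a list; a few other genes were named after their values were seen. Alternatives were DESeq2 1.42.0, limma 3.58.1 on log2(TPM + 1) and log2(TPM + 0.1), no filter and a stricter filter (10 CPM in 2 libraries), library-size scaling, a length offset, fits to only the groups compared, no fold minimum, a replicate block, leaving out each library, and Myc without Myc-202. Promoters are RefSeq (GRCm38.p6) and transcripts GENCODE M21.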

Additional observations from a re-analysis of the deposited data

How the results depend on the processing

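Of 1206 log2 fold changes of the 10 genes under 21 other settings, 1134 kept their direction and their side of the threshold, and 38 passed it only without a fold minimum. The setting without a fold minimum reused the main fold changes, so no direction could change there. Without that minimum 9 of the 10 genes were called at day 3 against MEF, 10 for day 6 against day 3, 7 for day 9 against day 6, 8 for ESC against day 9, 8 for ESC against MEF and 10 for day 9 against MEF. From MEF to day 3 the count was 1 with DESeq2 and with limma on log2(TPM + 1) or log2(TPM + 0.1), and 1 to 2 when each library was left out; the gene lost was Mycn. Same-numbered libraries did not deviate together (correlations of -0.02 to 0.022 over 20 pairs), and the replicate block left the counts at 2, 2, 0, 3, 3 and 4. Deviations within a group of 2 libraries mirror each other, so the 2 pairs from any 2 groups give the same correlation and are not separate values.

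By TPM in place of reads, the share of Myc on Myc-202 was 5.46% in MEF, 87.5%, 93.1% and 92.8% at days 3, 6 and 9, and 6.06% in ESC. Without Myc-202 the direction of Myc turned, to -1.31 (day 3) and -2.03 (day 9) against MEF and to -0.55 for day 6 against day 3.

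The other 22 reversals were at most 0.17 in size, and their cause was not tested. Max for ESC against day 9 was 0.04 with DESeq2, 0.02 with the stricter filter and with library-size scaling, 0.12 and 0.13 with limma, and -0.06 to 0.0013 with libraries left out. Max was -0.01 for ESC against MEF and -0.05 for day 9 against MEF with DESeq2, and -0.04 for the latter with only 2 groups. Library-size scaling, which moved the median of all genes from 0.08 to 0.29 at day 3 and from 0.10 to 0.44 for ESC against MEF, put Mnt at 0.01 and 0.06 there and Mxd3 at 0.17 for ESC against MEF. Mnt was 0.01 from day 6 to day 9 with the length offset. Mxi1 from MEF to day 3 was -0.12 with DESeq2, -0.09 with the stricter filter, -0.06 with only 2 groups and -0.02 to 0.03 with libraries left out. With limma, Mlx was -0.05 from day 6 to day 9, and -0.04 and -0.05 from MEF to day 9. A group left with 1 library was assumed to vary like the others.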

Other observations

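Regulators of the stability of the Myc protein were read as a list of 13. Usp28, a deubiquitinase known to keep Myc from degradation, was 2.09 higher on the log2 scale at day 3 than in MEF (SE 0.046, edgeR adjusted p 3.1e-14), at 87.7 against 20.6 CPM. There 1 of the 13 was called higher and 1 lower, against 14.6% and 14.5% of all genes. Usp28 was highest at day 6, at 148 CPM, and stood at 109 CPM on day 9 and 129 CPM in ESC. Pim1, a kinase that phosphorylates Myc, was called lower at day 3, at 28.8 against 90.8 CPM (-1.66), and was higher in ESC than at day 9 by 1.55. At day 9 against MEF 4 of the 13 were called higher and 1 lower, where 24.1% and 19.8% of all genes were, with Skp2, a ubiquitin ligase subunit, at 1.56. With library-size scaling 7 were called higher and 0 lower. Gsk3b, the kinase that marks Myc for the ligase Fbxw7, was lower in ESC than in MEF, at 59.4 against 144 CPM (-1.27, edgeR adjusted p 6.1e-12), a call lost with library-size scaling (-0.93) and with limma on log2(TPM + 1) (-0.99).

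Wdr5 was higher at day 6 than at day 3 by 1.24, at 215 against 90.5 CPM.

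The 4 endothelial markers summed to 8.384 to 9.124 CPM in MEF, 129 to 131.7 on day 3, 126.8 to 131.7 on day 6, 75.93 to 76.91 on day 9 and 9.507 to 9.516 in ESC, so the sum was high in the same induced groups as Myc, with Cdh5 under 1 CPM in MEF, Emcn under 1 CPM on days 3 to 9 and Cdh5 and Kdr under 1 CPM in ESC. Its part in the results was not tested. Macrophage markers summed to 4.351 to 11.28 CPM outside ESC and to 30.9 to 32.69 CPM there. Depth limits Mycn in MEF (33 to 36 reads), and Mxi1 and Max transcript shares have no deposited error.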
